A study of Mus musculus with 73 samples.

Results

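Embryos carrying p150DN, a form meant to disturb chromatin assembly factor 1 (CAF-1), were sampled at the 8-cell stage and compared with control blastocysts by RNA-seq, to ask which genes of the blastocyst these embryos still lacked and which earlier genes they still held. The comparison covered 5 of the 8 RNA-seq libraries among the 73 samples of the series: 3 libraries labelled p150DN 8-cell and 2 labelled EGFP blastocyst. Genes were kept where at least 2 of these 5 libraries reached 1 FPKM (fragments per kilobase of gene, scaled to the library's total), which left 12648 of the 25220 genes in the table. All embryos were mouse hybrids, C57BL/6 / C3H in the labels, grown in KSOM medium. p150 is the large CAF-1 subunit, encoded by Chaf1a, and p150DN is its dominant-negative form. EGFP, a green fluorescent protein, marks the control embryos, so the blastocysts carried the control and not p150DN. The labels used here do not say how p150DN and EGFP were given to the embryos sequenced for RNA, at what hour they were collected, or how many embryos made up a library. Stage and p150DN differ together between these groups and cannot be told apart. The 3 EGFP 8-cell libraries took no part in the test, and their values stand beside some of the named genes as a description. A higher gene whose EGFP 8-cell values are not given need not be an earlier gene that was kept.

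CAF-1 places histones H3 and H4 on newly copied DNA, and its large subunit holds the complex at the replication fork. A mouse blastocyst has an outer epithelium, the trophectoderm, which seals and pumps fluid into a cavity, and an inner cell mass, which splits into the pluripotent epiblast and the primitive endoderm. Cdx2, Gata3 and keratins mark the trophectoderm, Nanog and Sox2 the epiblast, and Sox17 and Gata4 the primitive endoderm.

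Chaf1a itself (chromosome 17, 56040416 to 56068026, build GRCm38.p6) was measured first. In p150DN it reached 165, 254 and 238 FPKM, against 26.5 and 27.2 FPKM in blastocysts and 27.7, 30.2 and 28.8 FPKM in EGFP 8-cell embryos. All 3 p150DN libraries lay above all 5 control libraries (against the blastocysts, log2 fold change 2.96, SE 0.20, adjusted p = 0.00158). The table does not separate a supplied p150DN transcript from the embryo's own Chaf1a, so this value checks the labels and does not measure the resident gene. Chaf1b, which encodes the middle CAF-1 subunit, stood at 23.2, 22.4 and 22.2 FPKM against 20.5 and 23.3 FPKM in the blastocysts. The 95% interval of its log2 fold change ran from -0.29 to 0.38.

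The libraries rested on 16578221 to 22488477 counted fragments, so that a gene of 1 kilobase at 1 FPKM stood for 16.6 to 22.5 fragments. These depths came from the FPKM value of a single fragment over RNA genes of at most 300 bases, where 93.7% to 97.0% of values were whole multiples of it within 0.02. Library values correlated at 0.960 to 0.969 among the p150DN libraries and at 0.985 between the blastocysts on the log2 scale. p150DN replicate 2 lay farthest from the blastocysts, with correlations of 0.892 and 0.887, and replicate 1 nearest, with 0.935 and 0.933. More genes were detected above 0 in p150DN replicates 2 and 3 (20465 and 21282) than in replicate 1 (18412) or the blastocysts (18991 and 18547). The labels do not say that replicates came from separate cultures, so p-values cover only library-to-library spread, which may be technical.

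Of the 12648 genes, 3301 (26.1%) passed limma at a Benjamini-Hochberg adjusted p below 0.05. The log2 fold change throughout is p150DN minus blastocyst on log2(FPKM + 1), "higher" and "lower" refer to p150DN, and adjusted p-values come from this fit. In p150DN 1500 genes (11.9%) were higher and 1801 (14.2%) lower, of which 860 and 736 differed at least 2-fold. For 6578 genes (52.0%) the 95% interval of the difference lay wholly within 2-fold, which is the sense of "within 2-fold" below. The median log2 fold change over all tested genes was -0.05. Libraries of the groups did not overlap for 7709 genes (61.0%). With blastocyst replicate 1 left out 501 genes passed and with blastocyst replicate 2 left out 323, against 2369 to 4215 with each p150DN library left out in turn. Of the 199 named genes with a call, 121 lost their call without blastocyst replicate 1 and 141 without blastocyst replicate 2. These losses are therefore given by list below, and for a single gene only where a p150DN library decides its call.

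**Figure D1:**
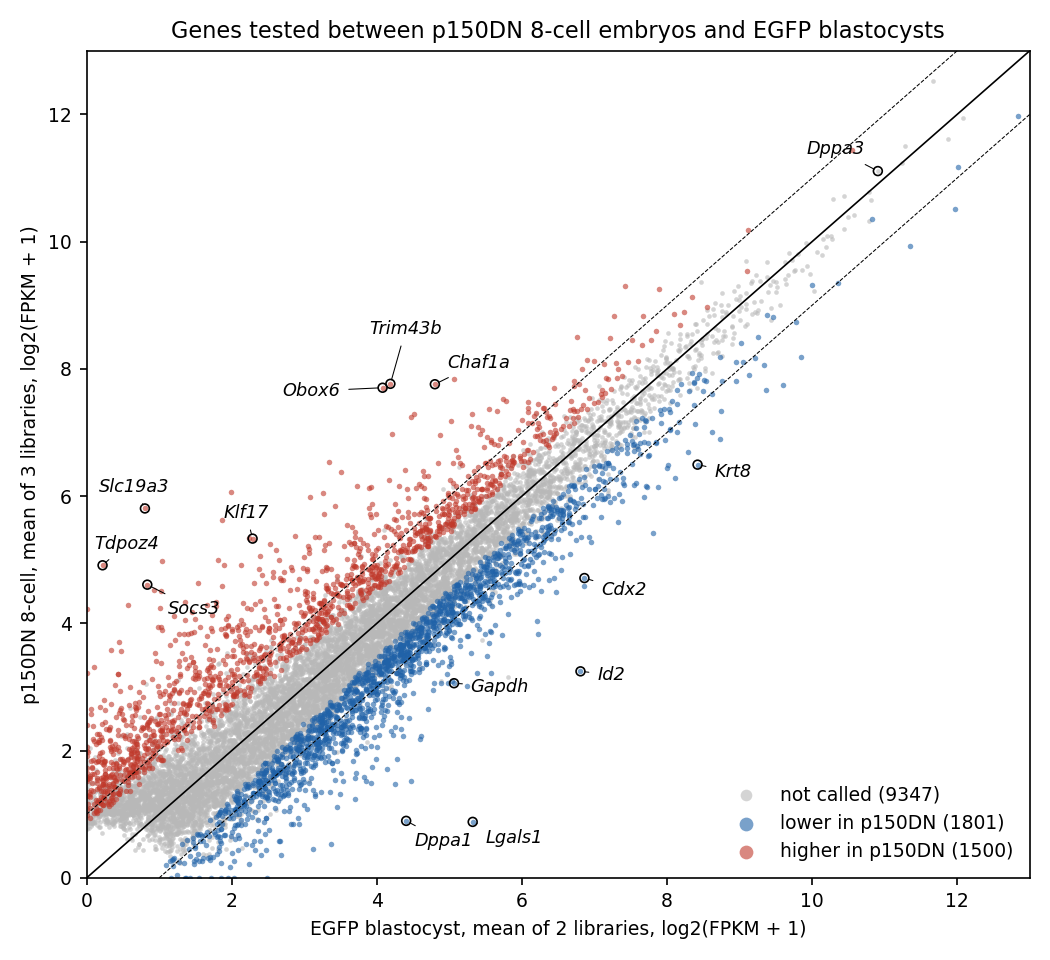
Mean log2(FPKM + 1) of the 3 p150DN 8-cell libraries (vertical axis) against that of the 2 EGFP blastocyst libraries (horizontal axis), 1 point per tested gene. Red points are the 1500 genes called higher and blue points the 1801 called lower in p150DN, dashed lines mark a 2-fold difference, and Chaf1a, Obox6 and Trim43b stand far above the diagonal while Lgals1, Dppa1 and Id2 stand far below it.

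Transcription factors of the trophectoderm were in part lacking. Of 24 tested, 8 were lower (33.3%), 3 were higher (12.5%) and 8 lay within 2-fold (33.3%), against 14.2%, 11.9% and 52.0% over all genes. Their median log2 fold change was -0.36. Cdx2, the caudal-type homeobox factor that defines this lineage, stood at 25.4, 17.02 and 36.9 FPKM in p150DN, 109 and 121 FPKM in blastocysts and 4.21, 2.79 and 2.17 FPKM in EGFP 8-cell embryos. Every p150DN library lay above every EGFP 8-cell library and below both blastocysts (log2 fold change -2.15, SE 0.29, adjusted p = 0.00582). Gata3, a zinc finger factor that acts beside Cdx2, showed the same order, with 47.6, 41.4 and 54.3 FPKM in p150DN, 147 and 172 FPKM in blastocysts and 6.65, 3.44 and 3.57 FPKM in EGFP 8-cell embryos (log2 fold change -1.72, SE 0.16, adjusted p = 0.00221). Both calls stayed under all 17 alternative analyses. Id2, an inhibitor of helix-loop-helix factors, had the second largest difference of all named falls, at 3.28, 11.9 and 14.5 FPKM against 117 and 105 FPKM (log2 fold change -3.56, SE 0.50, adjusted p = 0.00619). p150DN replicate 1 was the lowest of the 3 for Id2, and no p150DN library came near a blastocyst. Tfap2a, an AP-2 factor, was at 0.378, 2.505 and 3.51 FPKM against 14.03 and 23.3 FPKM (log2 fold change -2.77, SE 0.49, adjusted p = 0.011). In bulk embryos, fewer cells of a type and less RNA per cell cannot be told apart.

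Not every factor of this lineage passed as lower. Tfap2c, another AP-2 factor, stood at 76.3, 64.9 and 69.1 FPKM against 92.2 and 74.2 FPKM, and Klf5, a Krüppel-like factor needed for both blastocyst lineages, at 359.9, 363 and 348 FPKM against 360.4 and 383 FPKM. Both lay within 2-fold. Eomes, a T-box factor, stood at 3.78, 8.31 and 8.04 FPKM in p150DN, 10.1 and 14.1 FPKM in blastocysts and 0.827, 0.359 and 0.195 FPKM in EGFP 8-cell embryos. Its libraries had the same order as those of Cdx2 and Gata3, but the difference from blastocysts did not pass (log2 fold change -0.81, SE 0.32, adjusted p = 0.102). Hand1, a helix-loop-helix factor of later trophoblast, went the other way, with 61.8, 165 and 75.1 FPKM in p150DN, 12.03 and 6.86 FPKM in blastocysts and 148, 229 and 89.3 FPKM in EGFP 8-cell embryos (log2 fold change 3.19, SE 0.42, adjusted p = 0.00547). Ovol2, a zinc finger factor of epithelia, was also higher, at 26.6, 27.6 and 30.4 FPKM against 8.46 and 5.57 FPKM (log2 fold change 1.89, SE 0.20, adjusted p = 0.00307).

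The called epithelial genes of the trophectoderm were all lower. Of 34 tested genes of its epithelium and transport, 15 were lower (44.1%) and none higher, with a median of -0.57. Over all genes 14.2% were lower and 11.9% higher. The keratin genes Krt8 and Krt18, whose proteins form the first intermediate filaments of the embryo, were well expressed but below blastocyst level. Krt8 stood at 59.99, 98.6 and 119.7 FPKM against 333 and 350.2 FPKM, and at 8.97, 6.98 and 10.1 FPKM in EGFP 8-cell embryos (log2 fold change -1.93, SE 0.27, adjusted p = 0.00619). Krt18 stood at 117, 147 and 241 FPKM against 418 and 435 FPKM (log2 fold change -1.403, SE 0.28, adjusted p = 0.0147). p150DN replicate 3 was the highest of its group for both keratins and still below each blastocyst. Lgals1 (chromosome 15, 78926725 to 78930465), which encodes galectin-1, had the largest fall of all named genes: 0.491, 0.447 and 1.89 FPKM against 34.3 and 44.3 FPKM (log2 fold change -4.44, SE 0.33, adjusted p = 0.00175). EGFP 8-cell embryos had 0.5403, 0.433 and 0.905 FPKM, so that p150DN replicates 1 and 2 lay in their range and replicate 3 above it. Fabp5, a fatty acid binding protein, was at 29.5, 10.998 and 36.6 FPKM against 119 and 111 FPKM (log2 fold change -2.27, SE 0.44, adjusted p = 0.0137). S100a11, a calcium-binding protein, was by contrast within 2-fold at 102, 96.7 and 107 FPKM against 117 and 138 FPKM, although EGFP 8-cell embryos had only 9.34, 5.1003 and 6.26 FPKM.

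With each p150DN library left out in turn, 10 to 14 epithelial genes and 7 to 8 transcription factors of the trophectoderm were lower, and 6 epithelial genes became higher without replicate 1. With a blastocyst left out, 2 to 3 epithelial genes and 4 to 5 transcription factors were lower. The medians stayed below 0 in each case.

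Junction genes were lower in part. Desmosomes, the spot junctions that anchor keratin, had 8 of 15 tested genes lower (53.3%) and none higher, with a median of -0.75. Over all genes 14.2% were lower, 11.9% higher and 52.0% within 2-fold. Dsg2, a desmosomal cadherin, stood at 1.45, 2.26 and 5.13 FPKM against 22.3 and 15.2 FPKM (log2 fold change -2.41, SE 0.38, adjusted p = 0.0083), and Dsp, desmoplakin, at 18.3, 18.7 and 36.6 FPKM against 63.3 and 65.8 FPKM (log2 fold change -1.43, SE 0.29, adjusted p = 0.0158). Perp, a desmosomal membrane protein and p53 target, lay within 2-fold at 71.8, 82.3 and 80.6 FPKM against 67.5 and 53.4 FPKM. Of 25 tight junction genes 7 were lower, none was higher and 13 lay within 2-fold. The scaffold gene Tjp3 was lower at 4.85, 3.04 and 4.58 FPKM against 13.2 and 13.8 FPKM (log2 fold change -1.51, SE 0.22, adjusted p = 0.00637). Tjp1, a related scaffold, lay within 2-fold at 64.9, 41.2 and 63.3 FPKM against 54.9 and 61.4 FPKM, as did the claudin Cldn4 at 147, 114 and 142 FPKM against 204 and 140.4 FPKM. Among genes of adherens junctions, compaction and the apical domain 16 of 32 were lower (50.0%) and none higher. Actg1, cytoplasmic gamma actin, stood at 207, 185 and 215 FPKM against 691 and 624 FPKM (log2 fold change -1.696, SE 0.13, adjusted p = 0.00175), and Msn, the apical linker moesin, at 3.69, 7.47 and 12.3 FPKM against 35.2 and 38.2 FPKM (log2 fold change -2.22, SE 0.39, adjusted p = 0.0108). In the order desmosome, tight junction and adherens junction, 6 to 8, 6 to 9 and 13 to 15 genes were lower with a p150DN library left out, and 1 to 2, 0 to 2 and 2 to 3 with a blastocyst left out.

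The pumps and channels that fill the blastocyst cavity did not share this pattern. Of 14 tested, 6 were higher (42.9%), 1 lower (7.1%) and 5 within 2-fold (35.7%), against 11.9%, 14.2% and 52.0% over all genes. Their median was 0.22. Slc12a2, the sodium-potassium-chloride cotransporter, stood at 106, 148 and 124 FPKM in p150DN, 22.3 and 13.6 FPKM in blastocysts and 229, 232 and 198 FPKM in EGFP 8-cell embryos (log2 fold change 2.77, SE 0.23, adjusted p = 0.00192). Aqp9, a water and glycerol channel, was at 33.6, 37.5 and 35.1 FPKM against 16.96 and 9.34 FPKM (log2 fold change 1.42, SE 0.24, adjusted p = 0.0095). The water channel Aqp3 lay within 2-fold at 126, 89.6 and 139.5 FPKM against 158 and 72.97 FPKM. The lower gene was Atp1b1, the beta subunit of the sodium pump, at 13.6, 24.2 and 25.7 FPKM against 51.4 and 37.5 FPKM (log2 fold change -1.07, SE 0.29, adjusted p = 0.0345). Its call was lost without p150DN replicate 2 and without either blastocyst, where the highest adjusted p was 0.194. With blastocyst replicate 1 left out 3 genes of this list were higher, and with replicate 2 left out 1.

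**Figure D2:**
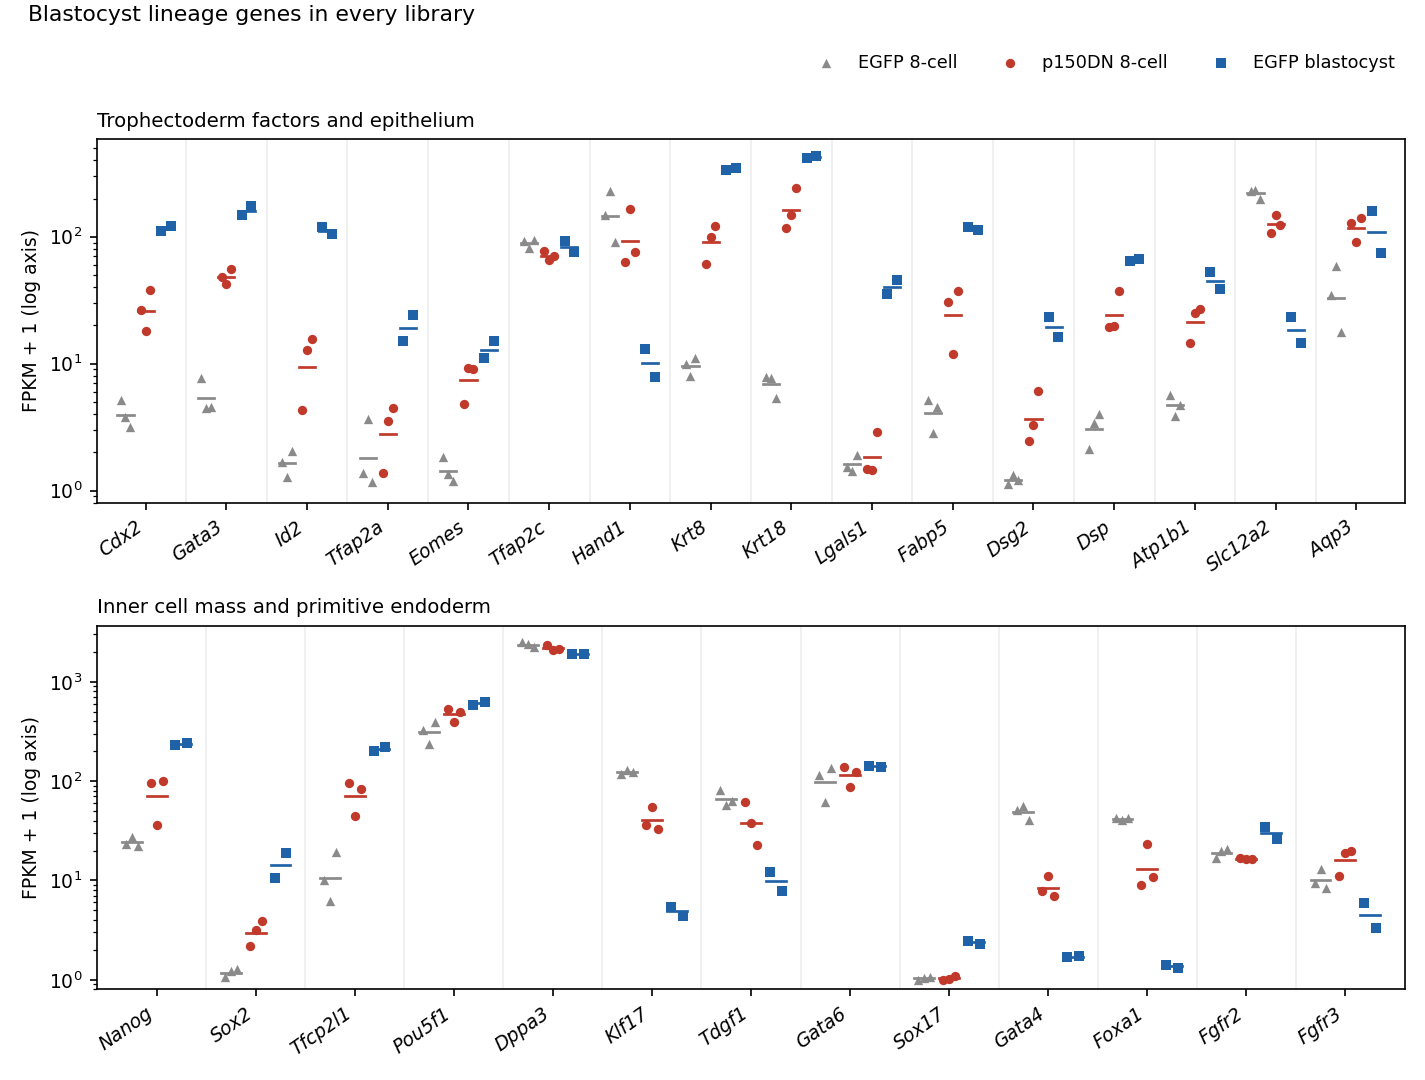
FPKM + 1 (log axis) of 29 lineage genes in each library: EGFP 8-cell (grey triangles), p150DN 8-cell (red circles) and EGFP blastocyst (blue squares), with bars at the mean of the log values. Cdx2, Gata3, Krt8, Nanog and Sox2 of p150DN lie between the control stages, Hand1, Slc12a2, Klf17 and Gata4 lie above the blastocysts, and Tfap2c and Dppa3 lie close together in all groups.

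Promoter letters of 3 genes that were lower in p150DN and 3 that were higher are shown, as examples from both sides of the contrast that were chosen after their values were seen. Each window is the 250 bases before a RefSeq start (build GRCm38.p6), printed 5′ to 3′ on the gene's strand, with matches to any of 7 short motifs in capitals. The motifs, sought on both strands, were GGAATG (bound by TEAD factors), TGANTCA (AP-1), AGATAA (bound by GATA factors), GGATTA (bicoid-type homeobox factors) and GGGCGG (the GC box). The other two were the CCAAT box, with the letters of its name, and the TATA box, searched as TATAAA. None of these contains another. Cdx2 lies at chr5:147307250-147307499 on the minus strand, Id2 at chr12:25096093-25096342 on the minus strand, Krt8 at chr15:102004343-102004592 on the minus strand, Klf17 at chr4:117765667-117765916 on the minus strand, Socs3 at chr11:117969367-117969616 on the minus strand, and Tdpoz4 at chr3:93796148-93796397 on the plus strand. The Socs3 window lies inside the RefSeq span of its gene, before an inner start, while the other windows end where the gene's span begins. Windows for Obox6, Trim43b, Trim43c and Lgals1 are not shown.
Cdx2 (lower): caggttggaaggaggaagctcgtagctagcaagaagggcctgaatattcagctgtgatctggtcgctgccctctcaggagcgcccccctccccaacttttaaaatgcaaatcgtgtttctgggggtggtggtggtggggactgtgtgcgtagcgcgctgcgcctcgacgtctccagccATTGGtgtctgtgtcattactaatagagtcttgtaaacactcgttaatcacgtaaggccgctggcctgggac
Id2 (lower): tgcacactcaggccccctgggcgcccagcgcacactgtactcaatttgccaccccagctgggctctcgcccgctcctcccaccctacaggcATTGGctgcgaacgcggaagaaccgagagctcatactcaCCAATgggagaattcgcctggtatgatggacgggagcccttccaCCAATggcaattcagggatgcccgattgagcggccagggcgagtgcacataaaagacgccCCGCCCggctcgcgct
Krt8 (lower): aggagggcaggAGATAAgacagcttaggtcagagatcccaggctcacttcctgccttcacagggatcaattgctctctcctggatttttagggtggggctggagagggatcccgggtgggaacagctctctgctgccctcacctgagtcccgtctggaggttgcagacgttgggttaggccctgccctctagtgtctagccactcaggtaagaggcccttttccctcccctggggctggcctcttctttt
Klf17 (higher): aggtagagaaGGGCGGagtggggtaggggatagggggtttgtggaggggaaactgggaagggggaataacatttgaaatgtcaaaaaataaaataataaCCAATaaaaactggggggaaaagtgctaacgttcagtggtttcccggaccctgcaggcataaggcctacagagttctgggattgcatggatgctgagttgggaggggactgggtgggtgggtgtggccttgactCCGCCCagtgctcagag
Socs3 (higher): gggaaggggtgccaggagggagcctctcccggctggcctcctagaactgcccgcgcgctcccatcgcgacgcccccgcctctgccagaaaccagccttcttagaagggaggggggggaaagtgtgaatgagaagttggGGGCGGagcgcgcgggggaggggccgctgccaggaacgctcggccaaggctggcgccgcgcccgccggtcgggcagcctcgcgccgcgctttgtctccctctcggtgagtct
Tdpoz4 (higher): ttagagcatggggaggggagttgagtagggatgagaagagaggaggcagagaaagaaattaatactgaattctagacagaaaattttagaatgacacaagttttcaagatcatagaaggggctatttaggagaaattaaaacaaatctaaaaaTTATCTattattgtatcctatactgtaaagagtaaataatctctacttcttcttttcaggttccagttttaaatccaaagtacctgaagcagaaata
Id2 held 3 CCAAT letters and 1 GC box, Cdx2 1 CCAAT, Krt8 1 GATA match, Klf17 2 GC boxes and 1 CCAAT, Socs3 1 GC box and Tdpoz4 1 GATA match. CpG dinucleotides numbered 26 in Socs3, 18 in Id2 and 13 in Cdx2, against 4 in Klf17, 3 in Krt8 and none in Tdpoz4. RefSeq windows were matched for 9683 of the tested genes (12200 windows, since a gene can have several starts). GGATTA was in 6.30% of the windows of higher genes, 3.67% of lower genes, 5.24% of all tested genes and 6.25% of all windows in the reference table. CCAAT was in 32.2%, 38.8%, 35.8% and 33.8% in the same order, and the GC box in 53.7%, 59.3%, 57.1% and 32.7%. The TEAD letters were in 11.4%, 11.5%, 10.7% and 12.6%, the AP-1 letters in 4.45%, 4.66%, 4.34% and 6.75%, the GATA letters in 6.85%, 5.24%, 6.03% and 9.99%, and TATAAA in 6.92%, 5.77%, 6.60% and 12.4%. These shares are descriptions of letters and were not tested.

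Genes of the inner cell mass went both ways. Of 30 tested, 8 were higher (26.7%), 4 lower (13.3%) and 14 within 2-fold (46.7%), against 11.9%, 14.2% and 52.0% over all genes. Their median was 0.16. The epiblast factor Nanog stood at 94.7, 35.4 and 98.98 FPKM in p150DN, 228 and 239 FPKM in blastocysts and 22.5, 26.7 and 21.1 FPKM in EGFP 8-cell embryos (log2 fold change -1.74, SE 0.41, adjusted p = 0.0246). p150DN replicate 2 was well below the other p150DN libraries for Nanog, and all 3 were below both blastocysts. Sox2, its partner factor, stood at 1.19, 2.14 and 2.89 FPKM against 9.66 and 17.9 FPKM (log2 fold change -2.25, SE 0.33, adjusted p = 0.00678), and Tfcp2l1, a factor of naive pluripotency, at 94.3, 43.5 and 81.4 FPKM against 201 and 218 FPKM (log2 fold change -1.58, SE 0.30, adjusted p = 0.0137). Pou5f1, which encodes OCT4, lay within 2-fold at 535, 389 and 496 FPKM against 589 and 625 FPKM, and so did Dppa3, a protector of maternal DNA methylation, at 2361, 2108 and 2161 FPKM against 1911 and 1925 FPKM. Klf17, a Krüppel-like factor of the early cleavage stages in mouse, was higher at 35.3, 53.5 and 32.1 FPKM against 4.38 and 3.43 FPKM and 117, 129 and 122 FPKM in EGFP 8-cell embryos (log2 fold change 3.04, SE 0.24, adjusted p = 0.0018). Morc1, a germline silencing factor, and Tdgf1, the NODAL co-receptor, were the next largest rises, with log2 fold changes of 2.01 and 1.94 and adjusted p of 0.00526 and 0.0161. With a p150DN library left out 7 to 8 genes of this list were higher and 3 to 6 lower, and with a blastocyst left out 3 were higher and 0 to 1 lower.

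Primitive endoderm genes also split, with 6 of 24 higher, 5 lower and 4 within 2-fold. Their median was -0.23 and their mean 0.17, so the list as a whole had no single direction. Gata4 stood at 6.86, 10.04 and 5.89 FPKM in p150DN, 0.712 and 0.718 FPKM in blastocysts and 50.7, 54.9 and 39.6 FPKM in EGFP 8-cell embryos (log2 fold change 2.296, SE 0.25, adjusted p = 0.00323). Foxa1, a forkhead factor, had the same order, 7.90, 22.1 and 9.88 FPKM, 0.406 and 0.322 FPKM and 41.5, 39.2 and 41.6 FPKM (log2 fold change 3.26, SE 0.39, adjusted p = 0.00429). Sox17 was near 0 in p150DN, at 0, 0.0125 and 0.0884 FPKM, and low in blastocysts, at 1.44 and 1.31 FPKM (log2 fold change -1.201, SE 0.25, adjusted p = 0.0171). Gata6 lay within 2-fold at 137, 87.2 and 123 FPKM against 142 and 137 FPKM. Apoe, the apolipoprotein, was lower at 17.6, 23.6 and 16.8 FPKM against 62.4 and 41.4 FPKM (log2 fold change -1.36, SE 0.23, adjusted p = 0.00921). Leaving out a p150DN library gave 4 to 6 higher and 4 lower genes on this list. Leaving out a blastocyst gave 3 to 5 higher and 0 to 1 lower.

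Genes of the signals that act on these lineages were called in both directions. Of 23 genes of FGF signalling, which drives primitive endoderm, 4 were higher (17.4%), 2 lower (8.7%) and 9 within 2-fold (39.1%). Over all genes the shares were 11.9%, 14.2% and 52.0%. The receptor Fgfr2 was lower at 15.8, 15.3 and 15.5 FPKM against 33.7 and 25.3 FPKM (log2 fold change -0.87, SE 0.17, adjusted p = 0.0139), while Fgfr3 was higher at 9.98, 17.7 and 18.7 FPKM against 4.94 and 2.31 FPKM (log2 fold change 1.84, SE 0.34, adjusted p = 0.0121). Of 25 genes of the Hippo pathway, which restrains YAP in inner cells, 6 were higher, 2 lower and 15 within 2-fold. Tead4, the DNA-binding partner of YAP that acts upstream of Cdx2, stood at 59.02, 52.9 and 69.1 FPKM against 53.3 and 57.4 FPKM, and Yap1 at 54.6, 60.3 and 53.8 FPKM against 43.2 and 46.8 FPKM, both within 2-fold. The kinase Taok1 was higher at 61.5, 90.9 and 88.2 FPKM against 34.8 and 40.2 FPKM (log2 fold change 1.06, SE 0.20, adjusted p = 0.0127). None of the Hippo genes passed with either blastocyst left out, and 3 were higher without p150DN replicate 3. The higher FGF genes numbered 8 without p150DN replicate 1, 2 without replicate 2 or 3, 1 without blastocyst replicate 1 and none without blastocyst replicate 2.

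Many transcripts of earlier stages were higher. Of 34 genes of the 2-cell stage found, 13 were too low to test. Of the 21 tested, 12 were higher (57.1%) and none lower, with a median of 1.37. Over all genes 11.9% were higher and 14.2% lower. Of 51 maternal oocyte transcripts 26 were higher (51.0%) and 3 lower (5.9%), with a median of 1.13. Of 28 genes of 8-cell and morula activation 12 were higher (42.9%) and 4 lower (14.3%), with a median of 0.71. All 4 Obox homeobox genes tested were higher. With each p150DN library left out in turn the higher genes numbered 9 to 17 for the 2-cell list, 21 to 37 for the maternal list and 11 to 12 for the 8-cell list. With a blastocyst left out they numbered 6, 5 to 7 and 5 to 8.

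Obox6 (chromosome 7, 15833250 to 15839679), a paired-like homeobox gene of early embryos, stood at 193, 266 and 174 FPKM in p150DN, 19.097 and 13.2 FPKM in blastocysts and 514, 445 and 505 FPKM in EGFP 8-cell embryos (log2 fold change 3.62, SE 0.23, adjusted p = 0.00158). Tdpoz4, a TRAF-domain gene of the 2-cell embryo, stood at 15.2, 76.1 and 20.9 FPKM against 0.0928 and 0.2397 FPKM, with 65.4, 68.4 and 48.6 FPKM in EGFP 8-cell embryos (log2 fold change 4.69, SE 0.60, adjusted p = 0.00508). p150DN replicate 2 was the highest of its group for Tdpoz4 and reached the EGFP 8-cell level, while replicates 1 and 3 did not. The tripartite motif gene Trim43b stood at 277, 193 and 190.2 FPKM against 17.8 and 16.7 FPKM (log2 fold change 3.58, SE 0.19, adjusted p = 0.000897), and its relative Trim43c at 42.97, 63.7 and 41.7 FPKM against 2.39 and 2.88 FPKM (log2 fold change 3.77, SE 0.22, adjusted p = 0.00114). Obox, Tdpoz and Trim43 genes have near-identical copies, so how the authors' counting divided fragments among them is uncertain. Crxos, a homeobox gene of the same stages, lay within 2-fold at 299.9, 271 and 291 FPKM against 271 and 369 FPKM. Zscan4d, which marks the 2-cell burst, was too low to test, at no more than 0.231 FPKM in any of the 5 libraries. Zfp352, another 2-cell marker, was at 0.543, 3.799 and 8.43 FPKM against 0.0228 and 0.0393 FPKM and did not pass (log2 fold change 1.998, SE 0.67, adjusted p = 0.0639). It passed under 6 of 12 alternatives, among them pseudocounts of 0.1 and 0.5 and the fit without p150DN replicate 1.

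Oocyte transcripts among them included Zp3, a coat protein of the egg, at 6.93, 14.2 and 15.8 FPKM against 1.14 and 1.28 FPKM (log2 fold change 2.52, SE 0.33, adjusted p = 0.00555), and Gdf9, an oocyte growth factor, at 10.2, 23.7 and 17.6 FPKM against 2.86 and 2.83 FPKM (log2 fold change 2.17, SE 0.32, adjusted p = 0.0067). For both, p150DN replicate 1 was the lowest of its group, and replicates 2 and 3 were near the EGFP 8-cell embryos, which held 16.7, 16.5 and 13.4 FPKM of Zp3 and 22.7, 25.1 and 22.1 FPKM of Gdf9. Khdc3 and Ooep, members of the subcortical maternal complex, were lower. Khdc3 stood at 388, 217 and 277 FPKM in p150DN, 606 and 580.1 FPKM in blastocysts and 38.99, 28.5 and 52.4 FPKM in EGFP 8-cell embryos (log2 fold change -1.05, SE 0.23, adjusted p = 0.0197), and Ooep at 4.23, 3.47 and 2.899 FPKM against 14.7 and 8.55 FPKM (log2 fold change -1.44, SE 0.26, adjusted p = 0.0115).

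The largest rises of all held genes of other kinds too. Slc19a3 (chromosome 1, 83012523 to 83038820), a thiamine transporter, led with 15.99, 132 and 76.5 FPKM in p150DN, 0.712 and 0.777 FPKM in blastocysts and 143, 120.3 and 99.01 FPKM in EGFP 8-cell embryos (log2 fold change 5.003, SE 0.75, adjusted p = 0.00713). p150DN replicate 1 was well below replicates 2 and 3 for this gene, yet more than 10 times either blastocyst. Socs3, a feedback inhibitor of JAK-STAT signalling, stood at 19.8, 26.5 and 24.4 FPKM against 0.986 and 0.604 FPKM and 96.5, 61.4 and 87.2 FPKM in EGFP 8-cell embryos (log2 fold change 3.77, SE 0.20, adjusted p = 0.000897). Epm2a, the glycogen phosphatase laforin, was at 28.5, 35.6 and 28.4 FPKM against 0.479 and 1.85 FPKM (log2 fold change 3.95, SE 0.29, adjusted p = 0.00175). The other named rises were Bex6, Enpp3, Spz1, Dmrtb1 and Tmem229b, with log2 fold changes between 3.102 and 4.07. Spz1, at 7.88, 13.2 and 12.5 FPKM in p150DN, lay above the EGFP 8-cell embryos, at 7.02, 7.19 and 6.98 FPKM. Bex6, Dmrtb1 and Tmem229b lay below the EGFP 8-cell embryos, and Enpp3 overlapped them. Each of the 15 largest rises was still called with any 1 p150DN library left out.

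Falls beyond the lineage lists were of several kinds. Dppa1, a developmental pluripotency associated gene, stood at 0.251, 0.631 and 2.16 FPKM against 20.8 and 19.5 FPKM (log2 fold change -3.51, SE 0.38, adjusted p = 0.00323). Glrx, glutaredoxin, was at 2.73, 1.12 and 1.95 FPKM against 14.4 and 30.6 FPKM (log2 fold change -2.95, SE 0.36, adjusted p = 0.00444). Rab17, a GTPase of epithelial sorting, Prss8, an epithelial serine protease, and Wfdc2, a secreted protease inhibitor, had log2 fold changes of -2.44, -2.34 and -2.46 with adjusted p of 0.00246, 0.00393 and 0.00576. Bmyc, a relative of Myc, was at 16.5, 7.96 and 17.6 FPKM against 69.4 and 78.4 FPKM (log2 fold change -2.39, SE 0.31, adjusted p = 0.00547).

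**Figure D3:**
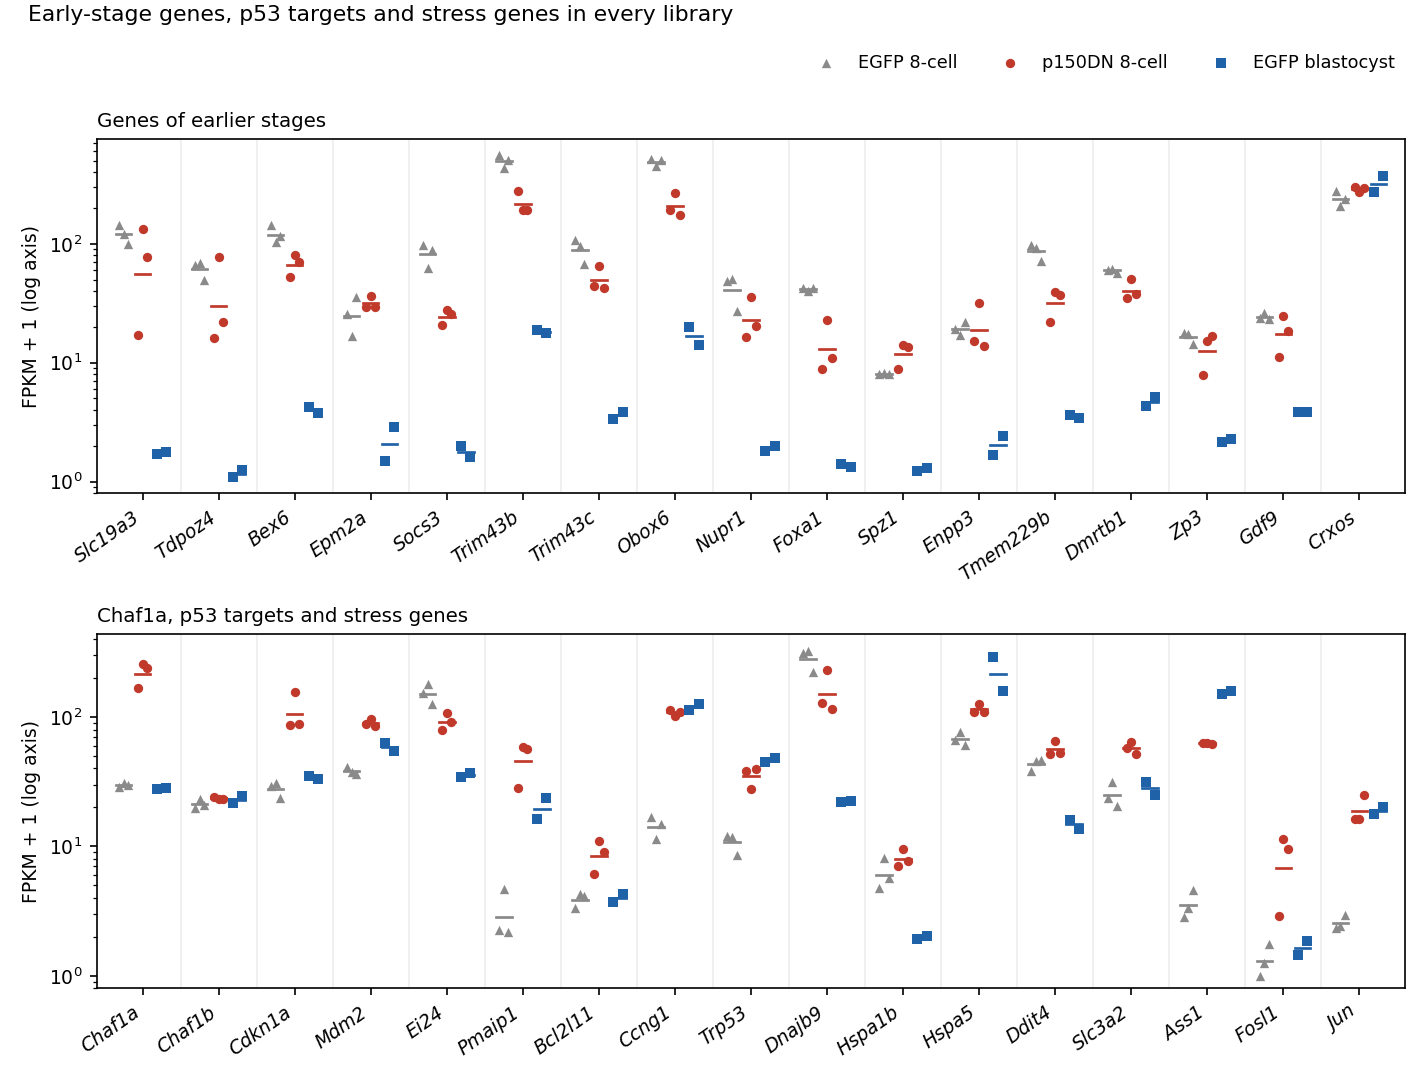
FPKM + 1 (log axis) of 34 genes in each library, with symbols and bars as in the plot of lineage genes. In the upper panel the p150DN libraries lie above both blastocysts for every gene but Crxos, and in the lower panel Chaf1a, Cdkn1a and Dnajb9 are higher and Ass1 lower than in blastocysts.

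Targets of p53, the factor that stops the cell cycle or triggers death after damage, were in part higher. Of 32 tested arrest and repair targets 7 were higher (21.9%), none lower and 20 within 2-fold (62.5%), against 11.9%, 14.2% and 52.0% over all genes. Their median was 0.24. Cdkn1a, which encodes the cyclin-dependent kinase inhibitor p21, stood at 85.2, 154 and 86.9 FPKM in p150DN, 34.3 and 31.9 FPKM in blastocysts and 28.1, 29.96 and 22.8 FPKM in EGFP 8-cell embryos (log2 fold change 1.63, SE 0.26, adjusted p = 0.00833). p150DN replicate 2 was the highest for Cdkn1a, and all 3 libraries lay above all 5 control libraries. Mdm2, the ligase that restrains p53, was at 87.8, 94.9 and 83.5 FPKM against 61.8 and 53.2 FPKM and 40.4, 36.9 and 35.4 FPKM in EGFP 8-cell embryos (log2 fold change 0.62, SE 0.14, adjusted p = 0.0207). Ei24, a p53-induced gene, was higher at 77.8, 107 and 90.5 FPKM against 33.2 and 35.7 FPKM (log2 fold change 1.37, SE 0.17, adjusted p = 0.00429), and EGFP 8-cell embryos had 152, 178 and 124 FPKM. Ccng1, cyclin G1, lay within 2-fold at 112, 101 and 109 FPKM against 113 and 126 FPKM, with 15.9, 10.4 and 13.96 FPKM in EGFP 8-cell embryos. Thus Ei24 lay between the control stages, while Mdm2 of p150DN lay above both. Trp53 itself stood at 37.4, 26.96 and 38.3 FPKM against 43.6 and 46.99 FPKM and lay within 2-fold. Of 26 genes of p53-driven death and the BCL2 family 8 were higher (30.8%), 3 lower (11.5%) and 14 within 2-fold (53.85%). Pmaip1, which encodes NOXA, stood at 27.3, 57.7 and 55.6 FPKM against 15.2 and 22.7 FPKM (log2 fold change 1.21, SE 0.34, adjusted p = 0.0384), and its call was lost without p150DN replicate 2 or 3. EGFP 8-cell embryos had 1.25, 3.67 and 1.19 FPKM of Pmaip1. Without p150DN replicate 2 or 3 the higher arrest targets numbered 4, without replicate 1 they numbered 10, and with a blastocyst left out 1 or 2. Higher death genes numbered 4 without p150DN replicate 2 or 3 and none without blastocyst replicate 2.

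Stress genes did not move as a block. Of 21 heat shock genes 3 were higher (14.3%), 4 lower (19.05%) and 12 within 2-fold (57.1%). These shares were near the 11.9%, 14.2% and 52.0% over all genes. Dnajb9, an endoplasmic reticulum co-chaperone, stood at 127, 231 and 115 FPKM in p150DN, 20.96 and 21.2 FPKM in blastocysts and 309, 324 and 221 FPKM in EGFP 8-cell embryos (log2 fold change 2.77, SE 0.29, adjusted p = 0.00307). Hspa1b, the inducible HSP70, was at 6.06, 8.57 and 6.76 FPKM against 0.919 and 1.03 FPKM (log2 fold change 2.03, SE 0.21, adjusted p = 0.00317), and has a near-identical copy. Hsp90b1, the chaperone GRP94, was lower at 106, 79.8 and 82.2 FPKM against 343 and 193 FPKM (log2 fold change -1.52, SE 0.25, adjusted p = 0.00941). Hspa5, the chaperone BiP, was at 108, 125 and 109 FPKM against 290.2 and 157 FPKM (log2 fold change -0.903, SE 0.25, adjusted p = 0.0365), and its call was lost with any 1 of the p150DN libraries left out. The abundant Hspa8 and Hsp90ab1 lay within 2-fold. Without p150DN replicate 2 the lower heat shock genes numbered 1, and with a blastocyst left out 2 were higher and 0 to 2 lower. Of 27 genes of the integrated stress response and amino acid supply 7 were higher (25.9%), 2 lower (7.4%) and 9 within 2-fold (33.3%). Nupr1, a stress-induced nuclear protein, stood at 15.5, 34.9 and 19.4 FPKM against 0.825 and 0.994 FPKM (log2 fold change 3.59, SE 0.32, adjusted p = 0.0021), and EGFP 8-cell embryos had 47.3, 49.8 and 26.3 FPKM. Ddit4, an inhibitor of mTORC1, was at 50.7, 63.9 and 51.9 FPKM against 14.96 and 12.7 FPKM (log2 fold change 1.93, SE 0.17, adjusted p = 0.00192). EGFP 8-cell embryos had 37.2, 44.3 and 45.5 FPKM of Ddit4, so p150DN lay above both control stages. Ass1, argininosuccinate synthase, was lower at 61.6, 61.5 and 61.1 FPKM against 151 and 157 FPKM (log2 fold change -1.31, SE 0.12, adjusted p = 0.0021). Of 20 AP-1 and immediate early genes 2 were higher and 1 lower, and Jun, a core AP-1 subunit, lay within 2-fold at 15.3, 15.3 and 23.96 FPKM against 16.7 and 19.03 FPKM. Without p150DN replicate 1 the higher AP-1 genes numbered 7, and without replicate 2 or 3 they numbered 1. Higher stress response genes numbered 4 without p150DN replicate 2 or 3 and 2 to 3 with a blastocyst left out.

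Many genes of energy metabolism were lower. Of 26 citric acid cycle genes 15 were lower (57.7%) and 1 higher (3.8%), with a median of -0.73. Of 26 glycolysis genes 13 were lower (50.0%) and 3 higher (11.5%), with a median of -0.67. Of 71 nuclear genes of oxidative phosphorylation 31 were lower (43.7%) and none higher, with a median of -0.48. Over all genes 14.2% were lower and 11.9% higher. Idh3a, a subunit of isocitrate dehydrogenase, stood at 25.3, 21.5 and 29.2 FPKM against 76.1 and 97.1 FPKM, with 7.93, 7.01 and 9.49 FPKM in EGFP 8-cell embryos (log2 fold change -1.74, SE 0.18, adjusted p = 0.00317). Fh1, fumarase, was at 16, 6.61 and 11.01 FPKM against 38.7 and 38.1 FPKM (log2 fold change -1.77, SE 0.31, adjusted p = 0.0108). Gapdh, the glycolytic enzyme often used as a reference gene, was at 5.28, 5.23 and 13.8 FPKM in p150DN, 36.3 and 29.01 FPKM in blastocysts and 0.482, 0.198 and 0.553 FPKM in EGFP 8-cell embryos (log2 fold change -2.01, SE 0.38, adjusted p = 0.0131). p150DN replicate 3 was more than 2 times the other p150DN libraries for Gapdh, and all 3 were below both blastocysts. Eno1, enolase, was at 13.6, 15.8 and 19.05 FPKM against 35.4 and 48.5 FPKM (log2 fold change -1.32, SE 0.20, adjusted p = 0.00756). The 3 higher members of the glycolysis list were Pfkfb3, Ldhb and Hk1. Pfkfb3, which makes the activator of phosphofructokinase, stood at 8.69, 20.3 and 16.9 FPKM against 0.8699 and 1.195 FPKM and 37.9, 48.8 and 31.6 FPKM in EGFP 8-cell embryos (log2 fold change 2.93, SE 0.34, adjusted p = 0.00381), while Ldhb, a lactate dehydrogenase subunit, and Hk1, hexokinase, had log2 fold changes of 1.54 and 0.98. Pdha1 of pyruvate dehydrogenase lay within 2-fold, at 134, 159 and 176 FPKM against 147 and 172 FPKM. In the respiratory chain Cyc1, cytochrome c1, was at 36.4, 21.5 and 30.3 FPKM against 67.4 and 65.7 FPKM (log2 fold change -1.18, SE 0.22, adjusted p = 0.0123), while Cox6c lay within 2-fold at 891, 815 and 808 FPKM against 868 and 816 FPKM.

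With each p150DN library left out, 13 to 15 citric acid cycle genes, 10 to 13 glycolysis genes and 23 to 32 respiratory genes were lower. With a blastocyst left out these counts were 1 to 5, 1 to 2 and 1 to 2, and the 3 medians ran from -0.75 to -0.44.

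Lipid genes were lower in part. Of 29 genes of fatty acid synthesis and lipid droplets 12 were lower and 2 higher (median -0.44), and of 30 genes of cholesterol synthesis and uptake 8 were lower and 3 higher (median -0.21). Fabp3, a fatty acid binding protein, stood at 217, 136 and 330.2 FPKM against 816 and 739.9 FPKM and 27.9, 22.5 and 14.3 FPKM in EGFP 8-cell embryos (log2 fold change -1.86, SE 0.33, adjusted p = 0.0108). Scd1, the stearoyl-CoA desaturase, was at 25.2, 23.04 and 21.5 FPKM against 79.04 and 62.6 FPKM (log2 fold change -1.56, SE 0.16, adjusted p = 0.00307). Srebf2, the master factor of cholesterol synthesis, was at 1.31, 2.57 and 3.19 FPKM against 18.4 and 15.1 FPKM (log2 fold change -2.44, SE 0.28, adjusted p = 0.00381). Not all synthesis enzymes shared its direction. Msmo1 was higher at 45.5, 38.4 and 50.2 FPKM against 25.1 and 24.3 FPKM (log2 fold change 0.82, SE 0.16, adjusted p = 0.0137), and Fdps lay within 2-fold at 47.4, 42.7 and 56.6 FPKM against 52.3 and 61.9 FPKM. Acsl4, a long-chain acyl-CoA ligase, was higher at 17.5, 58.3 and 40.6 FPKM against 4.52 and 5.72 FPKM (log2 fold change 2.55, SE 0.44, adjusted p = 0.0104). Cholesterol genes called lower numbered 4 without p150DN replicate 2. With a blastocyst left out 1 cholesterol gene and 1 to 3 fatty acid genes were lower.

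Most ribosomal protein and initiation factor genes lay within 2-fold, while ribosome biogenesis genes were in part higher and proteasome genes in part lower. Of 81 ribosomal protein genes 77 lay within 2-fold (95.1%), 1 was higher (1.2%) and 1 lower (1.2%). Over all genes the shares were 52.0%, 11.9% and 14.2%. Rplp1 stood at 2589, 2226 and 2393 FPKM against 2603 and 2233 FPKM and Rpl8 at 1880.1, 1643 and 1783 FPKM against 1783 and 1755 FPKM. Rpl41 was the higher one, at 2693, 2933 and 2736 FPKM against 1487 and 1511 FPKM (log2 fold change 0.89, SE 0.12, adjusted p = 0.00617). Ribosomal protein genes have many near-identical processed copies, which makes single values uncertain. Of 37 initiation factors 36 lay within 2-fold (97.3%), 4 were higher (10.8%) and none was lower. Only Eif4e, which binds the mRNA cap, was outside this range, at 84.9, 107 and 83.9 FPKM against 24.99 and 30.7 FPKM and 155, 157 and 153 FPKM in EGFP 8-cell embryos (log2 fold change 1.68, SE 0.17, adjusted p = 0.00277). Ribosome biogenesis had 18 of 67 genes higher (26.9%), none lower and 61 within 2-fold (91.0%), with a median of 0.25. Nolc1, a nucleolar phosphoprotein, stood at 398, 366 and 311 FPKM against 148 and 147 FPKM (log2 fold change 1.27, SE 0.14, adjusted p = 0.00371), and Wdr43 of the small subunit processome at 340.4, 297 and 221 FPKM against 124 and 113 FPKM (log2 fold change 1.24, SE 0.19, adjusted p = 0.00756). With a blastocyst left out 1 or 2 genes of this list were higher. Of 33 proteasome genes 9 were lower (27.3%) and none higher (median -0.39), and 29 lay within 2-fold (87.9%). The lower ones numbered 4 without p150DN replicate 3 and none without either blastocyst.

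**Figure D4:**
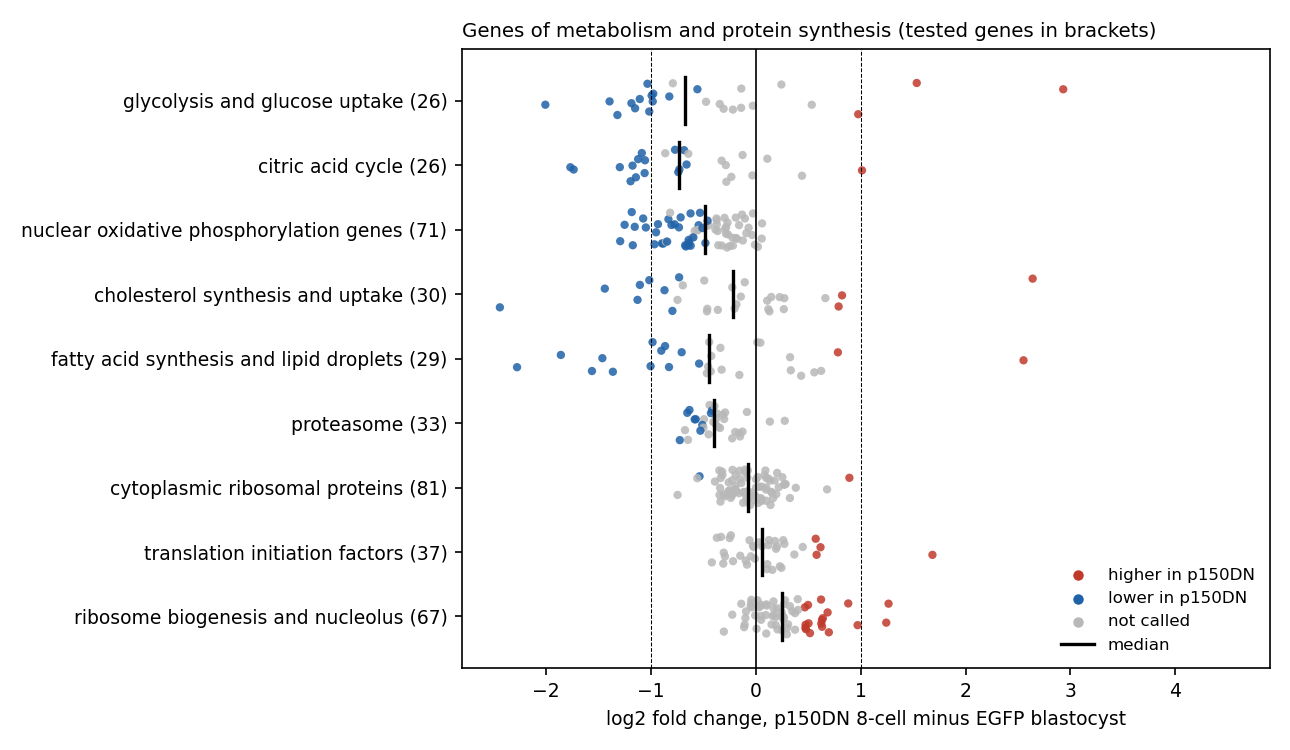
log2 fold change (p150DN 8-cell minus EGFP blastocyst) of each tested gene in 9 lists of metabolism and protein synthesis, coloured by call, with black bars at the medians and dashed lines at a 2-fold difference. The glycolysis, citric acid cycle and respiratory lists have medians of -0.67, -0.73 and -0.48, while the ribosomal protein list is centred at -0.08.

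Cell cycle and DNA repair genes lay within 2-fold for 32 of 41 genes of G2 and mitosis, 32 of 49 replication genes (65.3%) and 26 of 39 genes of DNA damage signalling and repair (66.7%), against 52.0% over all genes. Among replication genes 14 were lower (28.6%) and 2 higher, and among repair genes 10 were lower (25.6%) and 3 higher, against 14.2% lower and 11.9% higher over all genes. Lig1, the replicative DNA ligase, stood at 25.6, 19.4 and 26.4 FPKM against 56.3 and 62.6 FPKM (log2 fold change -1.296, SE 0.18, adjusted p = 0.00605), and Xrcc5, the KU80 end-joining factor, at 7.63, 8.95 and 8.998 FPKM against 19.9 and 22.1 FPKM (log2 fold change -1.21, SE 0.16, adjusted p = 0.00601). Brca2, needed for homologous repair, was higher at 42.3, 63.2 and 50.8 FPKM against 15.5 and 12.6 FPKM and 99.4, 92.3 and 92.8 FPKM in EGFP 8-cell embryos (log2 fold change 1.81, SE 0.20, adjusted p = 0.00346). Chek2, a checkpoint kinase, was higher too, at 63.9, 76.6 and 55.9 FPKM against 30.2 and 30.8 FPKM (log2 fold change 1.07, SE 0.17, adjusted p = 0.0077). The B-type cyclins, which drive mitosis, differed in direction. Ccnb1 was at 177, 163 and 150.4 FPKM against 95 and 105 FPKM (log2 fold change 0.699, SE 0.13, adjusted p = 0.0137) and Ccnb2 at 31.9, 33.5 and 37.2 FPKM against 60.5 and 73.1 FPKM (log2 fold change -0.94, SE 0.15, adjusted p = 0.0084). Ccne1, cyclin E1 of the G1-S transition, was higher at 118, 176 and 132 FPKM against 77.8 and 56.99 FPKM (log2 fold change 1.06, SE 0.21, adjusted p = 0.0149). Without p150DN replicate 3 the lower genes numbered 7 for replication and 3 for repair, without replicate 2 they numbered 8 and 6, and with a blastocyst left out no more than 1 each.

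Histone genes that are expressed with replication were in part lower. Of 59 tested replication-dependent core histone genes 21 were lower (35.6%), none higher and 11 within 2-fold (18.6%), with a median of -0.65. Over all genes 14.2% were lower, 11.9% higher and 52.0% within 2-fold. The 60 genes found summed to 7970, 6010 and 4552 FPKM in p150DN and 9672 and 10100 FPKM in blastocysts. In EGFP 8-cell embryos they summed to 11400, 8637 and 10940 FPKM, so p150DN lay below both control stages. H4c6 stood at 104, 75.7 and 54.97 FPKM in p150DN, 158 and 155 FPKM in blastocysts and 127, 98.7 and 128 FPKM in EGFP 8-cell embryos (log2 fold change -1.04, SE 0.25, adjusted p = 0.025), and this call was lost without p150DN replicate 2. H2ac18 was at 33.02, 20.7 and 28.4 FPKM against 51.8 and 66.9 FPKM (log2 fold change -1.104, SE 0.22, adjusted p = 0.0152), and has a near-identical copy, H2ac19. EGFP 8-cell embryos had 61.5, 54.1 and 83.1 FPKM of H2ac18, above every p150DN library. H2ac1, a testis-type H2A, lay within 2-fold at 106, 96.6 and 85.5 FPKM against 72.4 and 73.9 FPKM. Lower histone genes numbered 38 without p150DN replicate 1, 10 without replicate 2, 12 without replicate 3 and none with either blastocyst left out, while the median stayed between -0.86 and -0.45. Of the genes for the replacement histone H3.3, H3f3a stood at 139, 135 and 131 FPKM against 108 and 111 FPKM and H3f3b at 225, 289 and 232 FPKM against 264 and 280.1 FPKM, both within 2-fold. The variant gene Macroh2a1 was lower at 23.1, 10.8 and 39.8 FPKM against 76.6 and 74.3 FPKM (log2 fold change -1.75, SE 0.45, adjusted p = 0.0304), and H1f8, the oocyte linker histone, was higher at 5.41, 10.8 and 8.66 FPKM against 1.96 and 1.88 FPKM (log2 fold change 1.62, SE 0.28, adjusted p = 0.01).

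Histone chaperones had 22 of 27 tested genes within 2-fold (81.5%), 5 higher (18.5%) and 4 lower (14.8%), Chaf1a among the higher. Over all genes the shares were 52.0%, 11.9% and 14.2%. Hira, the chaperone that places H3.3 outside replication, was at 26.9, 30.6 and 29.7 FPKM against 17.1 and 19.3 FPKM (log2 fold change 0.65, SE 0.15, adjusted p = 0.022) and lost its call without p150DN replicate 3. Nasp, which holds the pool of free H3 and H4, lay within 2-fold at 242, 276 and 302 FPKM against 258 and 269 FPKM. Npm2, the egg nucleoplasmin, was higher at 6.35, 10.3 and 10.95 FPKM against 1.399 and 2.27 FPKM (log2 fold change 1.83, SE 0.27, adjusted p = 0.00713), and Hat1, which acetylates new H4, was lower at 187, 152 and 141 FPKM against 257 and 269.7 FPKM (log2 fold change -0.73, SE 0.15, adjusted p = 0.0171). Leaving out a blastocyst, 1 to 2 chaperone genes were higher and none lower, and with a p150DN library left out 3 to 7 were higher and 2 to 4 lower.

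Most chromatin enzymes lay within 2-fold. Of 25 genes of H3K9 methylation and HP1 4 were higher, 2 lower and 20 within 2-fold. The 29 Polycomb and H3K27 genes had 3 higher, 2 lower and 23 within 2-fold. All tested genes had shares of 11.9%, 14.2% and 52.0% in the same order. Both lists had a smaller share lower and a larger share within 2-fold than all genes. The share higher was above 11.9% for the H3K9 list and below it for the Polycomb list. Trim28, the corepressor KAP1, stood at 249, 239 and 232 FPKM against 227 and 246 FPKM, and Suz12 of PRC2 at 204, 224 and 205 FPKM against 196 and 187 FPKM, both within 2-fold. Cbx1, an HP1 protein, was lower at 32.97, 17.7 and 34.4 FPKM against 57.7 and 64.7 FPKM (log2 fold change -1.14, SE 0.28, adjusted p = 0.0278). Kdm4c, an H3K9 demethylase, was higher at 15.1, 28.6 and 21.7 FPKM against 7.21 and 6.86 FPKM (log2 fold change 1.46, SE 0.26, adjusted p = 0.0108), and so was Pcgf1, a PRC1 subunit, at 20.9, 22.2 and 21.5 FPKM against 6.68 and 7.84 FPKM (log2 fold change 1.45, SE 0.15, adjusted p = 0.00321). Of 20 DNA methylation genes 5 were lower, none higher and 11 within 2-fold. These shares were above, below and near those over all genes. Uhrf1, which brings DNMT1 to newly copied DNA, was at 14.9, 18.4 and 19.9 FPKM against 37.7 and 49.8 FPKM (log2 fold change -1.25, SE 0.19, adjusted p = 0.00732), and Tet2, a methylcytosine oxidase, at 68.7, 32.6 and 95.3 FPKM against 163 and 170.0 FPKM (log2 fold change -1.46, SE 0.39, adjusted p = 0.0347). Tdg, the glycosylase that completes demethylation, had the largest fall of the list, at 0.878, 0.1596 and 0.188 FPKM against 8.28 and 7.19 FPKM (log2 fold change -2.67, SE 0.28, adjusted p = 0.00318), and has pseudogene copies that can share its reads. With a blastocyst left out, 1 Polycomb gene was higher, no gene of the H3K9 list passed and 0 to 2 genes of DNA methylation were lower.

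Imprinted genes numbered 24 tested, with 6 higher, 2 lower and 9 within 2-fold. Phlda2, a maternally expressed gene that limits placental growth, stood at 16.9, 8.05 and 17.02 FPKM against 2.102 and 1.09 FPKM (log2 fold change 2.49, SE 0.35, adjusted p = 0.00619), and Sgce, a paternally expressed sarcoglycan, at 7.43, 4.88 and 6.56 FPKM against 2.09 and 1.85 FPKM (log2 fold change 1.28, SE 0.22, adjusted p = 0.0106). Snrpn, a paternally expressed splicing gene, lay within 2-fold at 37.4, 36.5 and 30.2 FPKM against 25.7 and 26.3 FPKM. Higher imprinted genes numbered 9 without p150DN replicate 1, 4 without replicate 2 or 3 and 0 to 2 with a blastocyst left out. Of 31 germline genes under DNA methylation control 4 were higher (12.9%), 5 lower (16.1%) and 15 within 2-fold (48.4%), shares near the 11.9%, 14.2% and 52.0% over all genes. Xlr3a, an X-linked lymphocyte-regulated gene, was lower at 2.59, 1.71 and 2.12 FPKM against 13.1 and 11.3 FPKM (log2 fold change -2.08, SE 0.21, adjusted p = 0.00277), and Tex19.1 lay within 2-fold at 97.2, 150.3 and 151 FPKM against 84.8 and 106 FPKM, although it passed as higher without p150DN replicate 1. Germline genes called higher numbered 9 without p150DN replicate 1 and 1 without replicate 3, and none with a blastocyst left out.

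**Figure D5:**
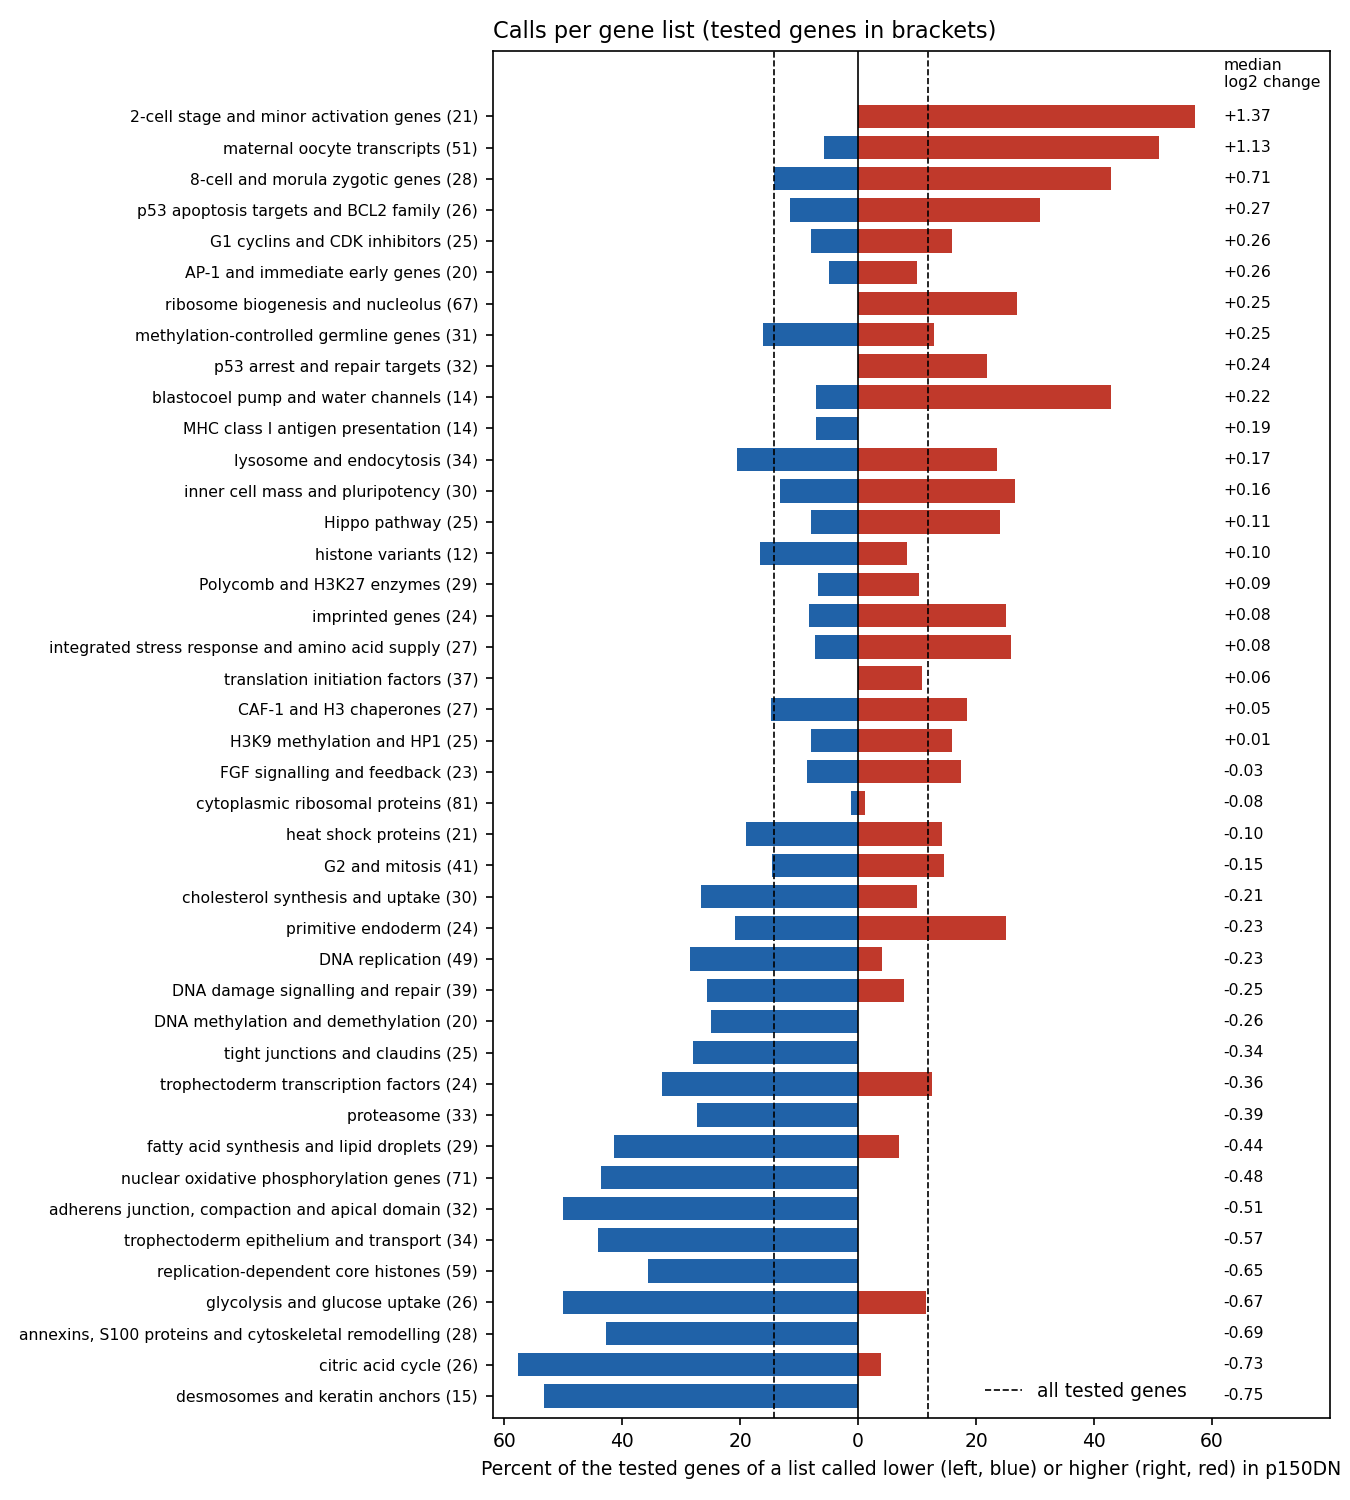
Percent of the tested genes of each of 42 lists called lower (blue, left) or higher (red, right) in p150DN, ordered by the median log2 fold change printed at the right, with dashed lines at the shares over all tested genes (14.2% lower, 11.9% higher). The 2-cell and maternal lists stand at the top and the desmosome and citric acid cycle lists at the bottom.

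The miR-290 cluster, which encodes abundant miRNAs of early embryos and pluripotent cells in mouse, was looked at as a group. A seed is the bases 2 to 8 of a mature miRNA, which select its targets. It lies on chromosome 7 between positions 3218626 and 3220841 of GRCm38.p6. The 3p mature sequences of 4 members (RefSeq) follow, 5′ to 3′ with the seed in capitals, and are shown because their seeds differ in no more than the last letter. Among the other 3p arms at hand, those of miR-290b, miR-292b and miR-293 have other seeds.
miR-290a-3p: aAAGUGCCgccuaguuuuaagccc
miR-291b-3p: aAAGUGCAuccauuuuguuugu
miR-294-3p: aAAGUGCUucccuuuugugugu
miR-295-3p: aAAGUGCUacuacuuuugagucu
Of these, miR-294-3p and miR-295-3p share the whole seed. A SMART-seq stranded kit was used on total RNA, and no small RNA cloning, so a value over a hairpin cannot be read as mature miRNA. Mir290a stood at 63.9, 71.5 and 53.8 FPKM in p150DN, 61.6 and 40.7 FPKM in blastocysts, and 73.5, 59.0 and 80.4 FPKM in EGFP 8-cell embryos, resting on 74 to 129 fragments a library. It lay within 2-fold. Mir291b stood at 137.3, 92.5 and 74.8 FPKM against 68.7 and 48.4 FPKM, and Mir294 at 30.4, 39.6 and 31.6 FPKM against 39.97 and 16.9 FPKM. The 8 hairpins of the cluster that were matched in the data were all tested, which need not be the whole cluster. None was called and 3 lay within 2-fold, with a median log2 fold change of 0.56. Blastocyst replicate 2 was the lower blastocyst for each hairpin named. Over all 441 miRNA genes tested 19 were higher and 48 lower, both smaller shares than the 11.9% and 14.2% over all tested genes.

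Markers of other cells that embryo samples could carry were checked. The 22 cumulus and granulosa genes summed to 269 to 308 FPKM in p150DN and 188 to 354.5 FPKM in blastocysts, nearly all of it Gja1, a gap junction gene that embryos express. Of these genes, Fshr, Has2, Lhcgr and Nr5a1 were no higher than 0.11 FPKM in any of the 5 libraries. Foxl2 stood at 0.331, 0.609 and 0.12 FPKM in p150DN against 0.123 and 0.212 FPKM and was too low to test. Inhbb, at 0.865, 1.946 and 1.502 FPKM against 0.51 and 0.261 FPKM, was not called. The 15 blood and immune genes summed to 8.73 to 13.8 FPKM in p150DN and 4.902 to 5.63 FPKM in blastocysts, and the beta globin genes Hbb-bs and Hbb-bt were at 0 in all of them. Cd52 of this list stood at 0.5855, 2.744 and 2.998 FPKM in p150DN against 0.103 and 0.796 FPKM and was not called. Hba-a1 reached 0.64 FPKM in p150DN replicate 2, and Cd79a 0.903 FPKM in replicate 3. Alas2 stood at 0.719, 0.31 and 0.64 FPKM against 0.731 and 0.629 FPKM. The 15 fibroblast genes summed to 6.82 to 10.1 FPKM and 8.20 to 18.9 FPKM, with Fn1 the largest part and Col1a1 and Col3a1 at no more than 0.26 FPKM. Postn of this list stood at 0.605, 1.996 and 1.77 FPKM in p150DN against 0.106 and 0.183 FPKM, and Thy1 at 0.3395, 1.12 and 1.15 FPKM against 0.506 and 0.513 FPKM, neither of them called. The 11 sperm and testis genes summed to 2.07 to 5.39 FPKM and 1.61 to 2.33 FPKM, with Prm1 at no more than 0.75 FPKM. Prm2 reached 1.26 FPKM and Ldhc 1.403 FPKM in p150DN replicate 3, against at most 0.285 and 0.274 FPKM in blastocysts. Of the tested members of these lists, Amhr2 and Cd68 were higher in p150DN, Amhr2 at 4.95, 11.8 and 9.204 FPKM against 1.56 and 1.302 FPKM and Cd68 at 5.98, 6.56 and 6.43 FPKM against 3.23 and 3.82 FPKM, and the call of Cd68 was lost without p150DN replicate 2 or 3. EGFP 8-cell embryos had 18.2, 23.7 and 17.5 FPKM of Amhr2. What part these markers have in the results was not tested.

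Sex-linked transcripts also varied between libraries. Xist, the RNA that silences 1 X chromosome in females, stood at 2.84, 39.2 and 49.6 FPKM in p150DN and 25.6 and 15.7 FPKM in blastocysts, and the Y-linked gene Ddx3y at 27.7, 11.4 and 13.5 FPKM against 23.1 and 24.4 FPKM. p150DN replicate 1 had the lowest Xist and the highest Ddx3y of the 5 libraries. The median log2 fold change of X-linked genes was -0.05, the same as over all genes, and no autosome's median lay outside -0.17 to 0.02. What part this difference between libraries has in the results above was not tested.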

How the data were processed

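The authors deposited one table of FPKM values per gene, 1 column per library, per the file headers. HISAT2, featureCounts, Bowtie2, SAMtools, Trim Galore and the build mm10 are named in the submitters' processing notes. Which annotation and strand option were used is not given in the sources used, so overlapping and antisense genes are uncertain. Columns headed 8C and Blast without DN were read as the EGFP groups. FPKM fixes each library's total, so differences in total RNA cannot be seen. The 65 samples of other assays were not analysed here.

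The values were tested as log2(FPKM + 1) with limma 3.58.1 in R 4.3.3 (lmFit, then eBayes with a trend), two-sided, with Benjamini-Hochberg adjustment over 12648 genes, after a filter of at least 1 FPKM in at least 2 of 5 libraries. A fold change on this scale understates the change of low genes. A gene lay within 2-fold where its 95% interval did so. Of 25220 symbols 25119 matched a RefSeq gene (GRCm38.p6), and of 1474 listed symbols in 48 lists 10 were not found.

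Named genes were a fixed set of reference genes, the 15 largest falls and rises with a mean of at least 5 FPKM in the higher group and no overlap, and for each list up to 3 called genes per direction and 2 within 2-fold with the highest mean. Predicted or unnamed genes and miRNA or snoRNA symbols were left out of the 15. The text gives the ones that carry each result, and a few others are not reported here. The members and lists were chosen with earlier results of these data known. Replicates of a group were compared, and none were identical. Alternatives covered the pseudocount, filter, scaling, libraries in the fit, prior, weights, left-out libraries and a replicate block.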

Additional observations from a re-analysis of the deposited data

How the results depend on the processing

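Against 3301 genes called (1500 higher, 1801 lower; 860 and 736 at least 2-fold) and 6578 within 2-fold, no filter on low values gave 1555 called (771 higher, 784 lower; 528 and 465 at least 2-fold) and 15753 within 2-fold. A filter of 5 FPKM left 562 at least 2-fold higher. Library weights gave 4966 called and 2417 higher. With p150DN replicates 2 and 3 both left out 801 genes were higher, 463 of them at least 2-fold. With 1 library left out the calls ranged from 323 to 4215, higher from 226 to 2239, lower from 97 to 1976, at least 2-fold higher from 226 to 1292, at least 2-fold lower from 97 to 833 and within 2-fold from 4002 to 6787. The lowest counts of calls came without blastocyst replicate 2 (323) and replicate 1 (501). Median-of-ratios scaling gave 3326 calls (1404 higher, 1922 lower) and quantile scaling 3044 (1546 and 1498). Of the named genes, Xist turned direction and was called without p150DN replicate 1 (log2 fold change 1.096, from -0.09 with all 5 libraries, where it was not called), with a range of -0.76 to 1.096 with 1 library left out. Causes of these changes were not tested. With 16.6 to 22.5 fragments per kilobase at 1 FPKM, depth limits the genes near the filter most.

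The labels give replicate numbers and do not say whether equal numbers pair the samples. Deviations of same-numbered libraries from their group means correlated at -0.065 and -0.061. The deviations of 2 blastocysts mirror each other, so these values cannot decide the question. A replicate block gave 3072 calls (1385 higher, 1687 lower), and 15 named genes lost their call.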

Other observations

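The remaining gene groups outside the comparisons above also held differences. Of 34 tested genes of lysosome and endocytosis 8 were higher (23.5%), 7 lower (20.6%) and 11 within 2-fold (32.4%), against 11.9%, 14.2% and 52.0% over all genes. Tfrc, the transferrin receptor that takes up iron, stood at 215, 278 and 200.2 FPKM in p150DN, 44.3 and 23.7 FPKM in blastocysts and 267, 282 and 287 FPKM in EGFP 8-cell embryos (log2 fold change 2.78, SE 0.27, adjusted p = 0.00246). Ctsl, the lysosomal protease cathepsin L, was at 107, 218 and 179 FPKM against 61.2 and 39.9 FPKM (log2 fold change 1.68, SE 0.31, adjusted p = 0.0125). Tfeb, a master factor of lysosome genes, was lower at 10.2, 13.9 and 15.4 FPKM against 27.9 and 26.2 FPKM (log2 fold change -1.004, SE 0.20, adjusted p = 0.0147), while the lysosomal membrane gene Lamp1 lay within 2-fold at 234, 176 and 233 FPKM against 336 and 199 FPKM. With a p150DN library left out 5 to 8 genes of this list were higher and 4 to 5 lower, and with a blastocyst left out 1 to 5 were higher and none lower.

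Of 28 genes of annexins, S100 proteins and cytoskeletal remodelling 12 were lower, none higher and 7 within 2-fold, with a median log2 fold change of -0.69. Anxa6, a membrane-binding annexin, stood at 3.58, 1.23 and 1.58 FPKM against 9.85 and 14.6 FPKM (log2 fold change -2.13, SE 0.34, adjusted p = 0.0084), and Anxa7 lay within 2-fold at 45.99, 46.5 and 56.05 FPKM against 60.9 and 71.4 FPKM. Lower genes of this list numbered 8 to 13 with a p150DN library left out and 1 to 3 with a blastocyst left out. Of 14 genes of MHC class I antigen presentation 1 was lower (7.1%), none higher and 7 within 2-fold (50.0%), against 14.2%, 11.9% and 52.0% over all genes. The lower one, H2-K1, a classical class I heavy chain, stood at 19.9, 25.7 and 26.5 FPKM in p150DN, 45.9 and 34.4 FPKM in blastocysts and 4.72, 5.72 and 6.88 FPKM in EGFP 8-cell embryos (log2 fold change -0.71, SE 0.19, adjusted p = 0.0357), and its call was lost with any 1 of the 5 libraries left out.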
